A study of Homo sapiens with 3 samples.

Results

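The polypeptide N-acetylgalactosaminyltransferases, or GALNT enzymes, start mucin-type O-glycans, and C1GALT1 with its chaperone C1GALT1C1 makes the first extension of them. The 10 genes described here, GALNT1, GALNT2, GALNT3, GALNT4, GALNT6, GALNT7, GALNT10, GALNT12, C1GALT1 and C1GALT1C1, were taken by symbol from gene tables that list 58892 genes beside spike-in sequences, and each symbol matched 1 gene ID. Their levels were compared in 3 libraries of poly-A RNA from cholangiocarcinoma, a cancer of the bile ducts. NG was KKU-213, a human line established from intrahepatic cholangiocarcinoma, kept in DMEM with 5.6 mM glucose. HG was KKU-213 in DMEM with 25 mM glucose. L5 was KKU-213L5, a subline derived from KKU-213 and known for high metastatic activity, also in DMEM with 25 mM glucose. All 3 media held fetal bovine serum and antibiotics, each is labelled as past passage 5, and cells were taken when confluent. Each group was 1 culture and 1 library, so no difference below has a replicate check and no test across samples was possible. HG and NG differ in glucose by label but were kept as separate cultures, and L5 differs from NG in both subline and glucose. In bulk RNA such as this, fewer cells with a transcript and less of it per cell cannot be told apart.

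GALNT enzymes sit in the Golgi and move N-acetylgalactosamine from UDP-GalNAc to serine or threonine of a protein, which makes the Tn antigen. C1GALT1 adds galactose to it and so makes core 1, the T antigen, from which most longer mucin-type chains are built. C1GALT1C1, also called COSMC, keeps C1GALT1 folded, and cells that lack it stop at Tn. Some GALNT enzymes act on bare peptides and others, such as GALNT7 and GALNT10, prefer peptides that already carry a sugar. Shortened mucin-type chains such as Tn and sialyl-Tn are well known on bile duct cancers.

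GALNT10 had the widest range of the members on the log2(FPKM + 1) scale, and its level in HG and in L5 was under that in NG. GALNT6 was low in HG, with NG and L5 close together, and had the wider range of the pair as a plain FPKM ratio. GALNT2 and C1GALT1C1 were lower, and GALNT3 higher, in HG and L5 than in NG. C1GALT1 and GALNT12 had overlapping intervals in all 3 libraries. Levels are in FPKM, fragment counts scaled to transcript length and library size, and each is given with the 95% counting interval that the authors' software wrote. These intervals and the ± values below cover counting error, not the spread between cultures.

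The promoters of the members whose interval in NG lay apart from those of both other libraries are printed here. GALNT1, GALNT4, GALNT6 and GALNT7 lay apart from NG in HG alone, and no promoter of theirs is printed. The printed promoters are RefSeq windows on GRCh38.p14, 250 bases before to 50 after the annotated start, read 5′ to 3′. Capitals mark matches on either strand to the searched motifs, which were the GC box (letters GGGCGG), the CCAAT box (letters CCAAT), the E box (letters CACGTG) and the core of the hypoxia response element (letters ACGTG). Overlapping matches run together.
GALNT10, chr5:154190483-154190782 on the plus strand: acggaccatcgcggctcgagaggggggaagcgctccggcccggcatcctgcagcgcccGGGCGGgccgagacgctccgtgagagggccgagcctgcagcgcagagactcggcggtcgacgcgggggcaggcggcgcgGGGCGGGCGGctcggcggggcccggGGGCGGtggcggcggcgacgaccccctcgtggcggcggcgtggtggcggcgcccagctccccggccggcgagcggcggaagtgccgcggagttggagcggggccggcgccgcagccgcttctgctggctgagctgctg
GALNT2, chr1:230066988-230067287 on the plus strand: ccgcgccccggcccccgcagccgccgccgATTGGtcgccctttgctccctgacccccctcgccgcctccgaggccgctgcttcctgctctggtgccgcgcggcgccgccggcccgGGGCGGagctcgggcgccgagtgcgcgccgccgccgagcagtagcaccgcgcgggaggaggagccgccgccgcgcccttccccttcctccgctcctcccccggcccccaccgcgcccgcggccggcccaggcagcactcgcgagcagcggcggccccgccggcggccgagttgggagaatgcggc
GALNT3, chr2:165794198-165794497 on the minus strand: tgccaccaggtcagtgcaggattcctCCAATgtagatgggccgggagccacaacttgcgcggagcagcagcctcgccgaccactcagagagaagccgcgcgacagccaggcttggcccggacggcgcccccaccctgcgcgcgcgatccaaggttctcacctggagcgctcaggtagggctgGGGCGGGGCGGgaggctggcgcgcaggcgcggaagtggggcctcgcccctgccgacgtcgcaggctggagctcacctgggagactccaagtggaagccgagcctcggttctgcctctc
C1GALT1C1, chrX:120630005-120630304 on the minus strand: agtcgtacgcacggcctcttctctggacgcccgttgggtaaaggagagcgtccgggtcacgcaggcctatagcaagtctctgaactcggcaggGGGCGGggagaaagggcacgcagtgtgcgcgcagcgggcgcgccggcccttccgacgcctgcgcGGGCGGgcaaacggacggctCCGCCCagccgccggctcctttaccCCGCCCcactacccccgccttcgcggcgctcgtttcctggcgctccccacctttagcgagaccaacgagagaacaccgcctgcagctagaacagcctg
The share of bases that are G or C was 81.0% for GALNT10, 82.0% for GALNT2, 70.0% for GALNT3 and 69.0% for C1GALT1C1. The median was 69.8% over all windows of the members and 58.7% over all 35116 promoter windows in the table. The GC box was found 4 times in the GALNT10 window, 4 times in that of C1GALT1C1, 2 times in that of GALNT3 and 1 time in that of GALNT2. Over all windows, 45.0% hold at least 1 GC box and 34.6% at least 1 CCAAT box. For 8 of the 10 members, all but GALNT4 and GALNT6, the table gave 10 windows. GALNT1 had 3 of these, in part overlapping. Of the 10 windows, 9 held a GC box and 5 a CCAAT box. The E box, which also forms part of carbohydrate response elements, was in 0 of the 10 windows and in 7.26% of all windows. The hypoxia element core, whose letters lie within those of the E box, was in 1 of the 10, that of C1GALT1, and in 21.4% of all windows. A match or its absence describes these letters in this window only.

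Estimated from the deposited coverage, the NG library held about 47100000 fragments, HG about 76000000 and L5 about 68700000, so NG was the shallowest. Of 10 cholangiocyte markers, 6 reached 1 FPKM in each library, with summed levels of 2399, 2186 and 2469 FPKM in NG, HG and L5. KRT7, KRT8, KRT18, KRT19 and EPCAM were all over 200 FPKM, while the biliary regulator ONECUT1 and the chloride channel CFTR were at or near 0. Of 8 hepatocyte markers SERPINA1 alone reached 1 FPKM, at 77.8, 27.8 and 36.5, and 0 of the other 7, albumin (ALB) included, was above 0.1. Like GALNT10 it was highest in NG, and its part in the results was not tested. Of 6 fibroblast markers and 6 leukocyte and endothelial markers found, 0 did. The tables also list 92 spike-in sequences. Scaled to the 49 of them at 1 FPKM or more in all libraries, the median log2 ratio of all genes shifted by -0.36 between HG and NG, by -0.36 between L5 and HG and by -0.72 between L5 and NG. Ratios below are on the deposited FPKM scale, and members' directions that turn under another scaling are named with them. The related genes outside the 10 members were not rescaled.

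GALNT1 and GALNT2 act on bare peptides and are widely expressed, and in NG they were the highest members. GALNT1 (ENSG00000141429, GRCh37 chromosome 18, 33161081 to 33291798) was listed at 48.8 FPKM in NG (interval 47.2 to 51.1), 42.9 in HG (42.1 to 44.7) and 45.4 in L5 (44.0 to 47.2). NG was highest, and its interval lay apart from that of HG but met that of L5. GALNT2 (ENSG00000143641, chromosome 1, 230193536 to 230417870), whose known substrates include proteins of lipid metabolism, was listed at 48.8 FPKM in NG (47.7 to 50.04), 34.99 in HG (34.3 to 35.7) and 35.4 in L5 (34.7 to 36.2). HG and L5 overlapped and both lay below NG, at 0.716 and 0.726 times its level. In NG the intervals of GALNT1 and GALNT2 overlapped, while in HG and L5 GALNT1 was above GALNT2.

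GALNT3 and GALNT6 are close relatives, and GALNT3 is known for protecting the hormone FGF23 from cleavage. GALNT3 (ENSG00000115339, chromosome 2, 166604101 to 166651192) was listed at 30.04 FPKM in NG (27.4 to 31.3), 39.4 in HG (36.7 to 40.4) and 38.0 in L5 (35.3 to 38.5). It was lowest in NG, with HG and L5 overlapping, and it was the 1 member that stood higher in HG than in NG, although under spike-in scaling its ratios turned to -0.02 for HG against NG and -0.50 for L5 against NG. GALNT6 (ENSG00000139629, chromosome 12, 51745682 to 51785200), reported in breast cancer as a modifier of fibronectin, was listed at 3.79 FPKM in NG (3.45 to 4.12), 1.33 in HG (1.199 to 1.47) and 3.48 in L5 (3.22 to 3.75). HG alone was low, and NG and L5 overlapped. These levels rest on an estimated 814, 462 and 1090 fragments.

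Coding sequences were compared over aligned positions of the longest complete coding isoforms in GENCODE 29. Of the 45 pairs of members, GALNT3 and GALNT6 had the largest share of identical bases, 63.4%. Gaps were left out of this share, and pairs with C1GALT1C1 came close, at 62.9% for GALNT3 and 62.4% for GALNT6. The share is therefore no measure of kinship. A stretch around the longest run of bases that GALNT3 and GALNT6 share, 14 bases in capitals, shows how far these 2 genes differ at the read level.
GALNT3, coding bases 1024 to 1097: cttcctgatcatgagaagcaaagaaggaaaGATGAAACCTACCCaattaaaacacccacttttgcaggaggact
GALNT6, coding bases 1000 to 1073: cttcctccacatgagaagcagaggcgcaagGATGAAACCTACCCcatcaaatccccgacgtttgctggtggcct
Over all 45 pairs the longest identical run was 20 bases in coding sequence and 32 bases in whole transcripts, under the read length of 100 bases, so no full read from these transcripts could match 2 of the members exactly. The split of reads between GALNT4 and its overlapping partner is different and is given below.

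GALNT12 (ENSG00000119514, chromosome 9, 101569981 to 101612363), known for germline variants in colorectal cancer families, was the lowest member in every library. It was listed at 1.16 FPKM in NG (0.811 to 1.51), 1.04 in HG (0.876 to 1.21) and 1.37 in L5 (1.09 to 1.65), from an estimated 110, 216 and 209 fragments. All 3 intervals overlapped. The log2 ratio of L5 against HG was 0.22, with a 95% counting interval of 0.01 to 0.42.

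GALNT4, GALNT7 and GALNT10 are known for working on peptides that already carry N-acetylgalactosamine. GALNT10 (ENSG00000164574, chromosome 5, 153570290 to 153800544) was listed at 39.6 FPKM in NG (37.1 to 42.2), 17.6 in HG (16.2 to 19.1) and 18.0 in L5 (16.6 to 19.4). NG was 2.24 times as high as HG, and the intervals of HG and L5 overlapped almost entirely. GALNT7 (ENSG00000109586, chromosome 4, 174089904 to 174245118) was listed at 23.3 FPKM in NG (22.5 to 24.1), 19.99 in HG (19.4 to 20.6) and 24.6 in L5 (23.9 to 25.4). HG was lowest, and NG and L5 overlapped narrowly.

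GALNT4 (ENSG00000257594, chromosome 12, 89913185 to 89918583), a gene with a single coding exon, was listed at 4.04 FPKM in NG (3.71 to 4.37), 3.39 in HG (3.16 to 3.64) and 3.93 in L5 (3.66 to 4.204). Its exon lies inside the read-through gene POC1B-GALNT4, listed at 0.922, 0.716 and 1.12 FPKM, so the split of reads between the pair is uncertain. Both had their lowest value in HG, though the POC1B-GALNT4 intervals of NG (0.694 to 1.15) and HG (0.568 to 0.864) overlapped.

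For the core 1 step, C1GALT1 (ENSG00000106392, chromosome 7, 7196565 to 7288251), the galactosyltransferase, was listed at 18.0 FPKM in NG (16.8 to 19.3), 17.0 in HG (16.0 to 18.0) and 16.3 in L5 (15.3 to 17.3). All 3 intervals overlapped. Its chaperone C1GALT1C1 (ENSG00000171155, chromosome X, 119759648 to 119764005) was listed at 33.7 FPKM in NG (31.8 to 35.6), 25.0 in HG (23.8 to 26.3) and 27.4 in L5 (26.2 to 28.8). NG was above both others, which overlapped. Enzyme to chaperone, the FPKM ratio was 0.536 in NG, 0.679 in HG and 0.594 in L5.

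**Figure D1:**
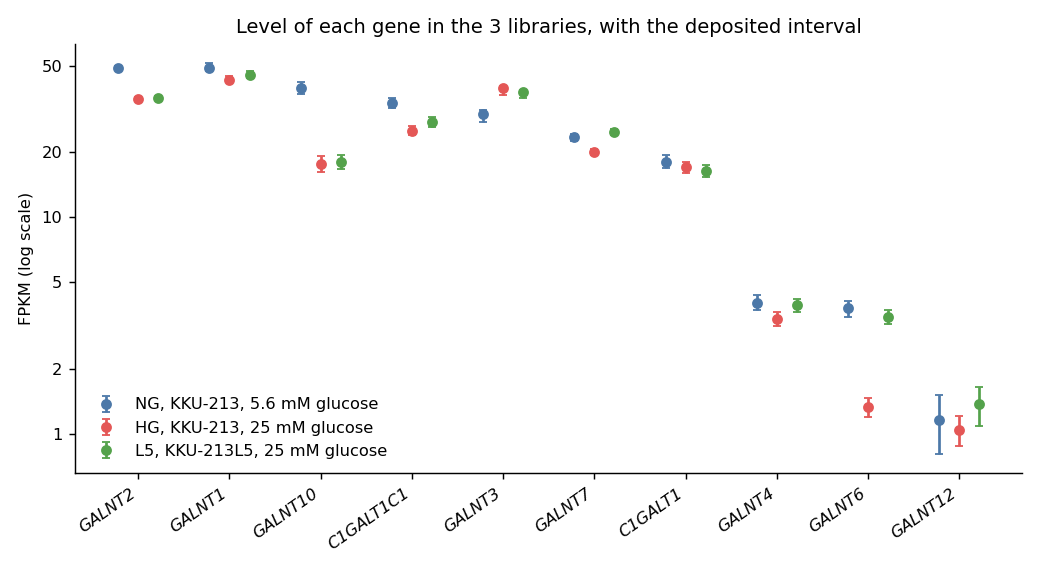
FPKM on a log axis of each of the 10 genes in NG, HG and L5 (1 library each), ordered by the level in NG; points are the listed FPKM and bars the deposited 95% counting interval. GALNT10 is at 39.6 FPKM in NG and at 17.6 and 18.0 in HG and L5, and GALNT6 is low in HG alone, at 1.33 FPKM.

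In the order of levels, GALNT2, GALNT1 and GALNT10 led in NG, and GALNT1, GALNT3 and GALNT2 led in HG and L5. GALNT10 ranked 3 among the members in NG and 6 in HG and L5, where its interval overlapped that of C1GALT1 just below it. GALNT4, GALNT6 and GALNT12 were the lowest in every library, with GALNT4 and GALNT6 overlapping in NG and L5, and GALNT6 and GALNT12 overlapping in HG.

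Set against all 20 GALNT genes found in the tables, the 8 members held 87.3%, 87.7% and 85.3% of the summed GALNT FPKM of NG, HG and L5. The sum over all 20 was 229 FPKM in NG beside 183 in HG and 199.5 in L5. GALNT10 made up 17.3% of it in NG, 9.63% in HG and 9.02% in L5, while GALNT3 made up 13.1%, 21.5% and 19.0%. GALNT1 held a share of 21.3%, 23.4% and 22.7%. These shares do not depend on how a library is scaled. In each library 12 of the 20 genes reached 1 FPKM, and the 4 of these that are not members were GALNT5, GALNT11, GALNT14 and GALNT18.

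**Figure D2:**
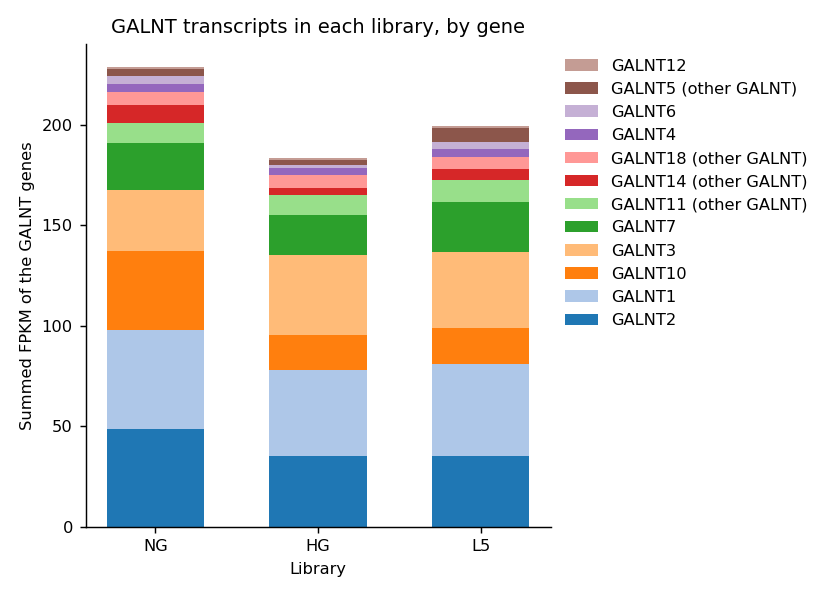
Summed FPKM of the GALNT genes that reached 1 FPKM in at least 1 library, stacked by gene, for NG, HG and L5 (1 library each). The GALNT10 layer is 39.6 FPKM in NG and 17.6 and 18.0 in HG and L5, and the GALNT3 layer is 30.04, 39.4 and 38.0.

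In HG against NG, the comparison of glucose concentrations, 2 of 10 members passed the size rule, which asks that log2(FPKM + 1) differ by 1 or more, and 4.19% of 13374 genes at 1 FPKM or more in either library did so. Both members were lower in HG, as were 2.87% of all genes, and 0 were higher, beside 1.32%. GALNT10 had a log2 ratio of -1.12 ± 0.07 (counting standard error) and GALNT6 of -1.04 ± 0.07, and 2.03% and 2.56% of all genes had lower ratios. GALNT6 lost the size rule with libraries scaled to an equal median (-0.98), and both lost it with a pseudocount of 5, at -0.98 for GALNT10 and -0.47 for GALNT6. A pseudocount understates ratios of low genes, and without one NG was 2.84 times as high as HG for GALNT6.

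GALNT2 (-0.47 ± 0.02), C1GALT1C1 (-0.41 ± 0.05), GALNT7 (-0.21 ± 0.03), GALNT4 (-0.20 ± 0.06) and GALNT1 (-0.18 ± 0.04) were inside the size rule with intervals apart from NG and lower in HG. GALNT3 stood at 0.38 ± 0.06, with 90.3% of all genes at lower ratios. C1GALT1 stood at -0.08 ± 0.06, or just above 0 with median or TPM scaling, and GALNT12 at -0.08 ± 0.13. Intervals apart were found for 8 of 10 members, 7 lower and 1 higher, beside 48.8% of all genes, 31.2% lower and 17.7% higher. Intervals are relatively narrower for genes with more fragments. The shares of all genes with intervals apart, here and below, were not matched to the members for level. The median of the 10 ratios was -0.20 beside -0.09 over all genes, and 61.5% of all genes had a ratio below 0.

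In L5 against HG, the comparison of the subline with KKU-213 at the same labelled glucose, 0 of 10 members passed the size rule, beside 2.22% of 13126 genes, 1.72% higher and 0.503% lower. GALNT6 came nearest, at 0.94 ± 0.06 and 2.61 times its level in HG, and it passed the rule with TPM scaling (1.10) and with a pseudocount of 0.1 (1.32). The TPM factor between these libraries was only 0.03 in log2. Most of that gain came from the pseudocount of 1 weighing less on the rescaled values. GALNT7 (0.29 ± 0.03) and GALNT4 (0.17 ± 0.06) also had intervals above HG. That makes 3 of 10 with intervals apart, all higher, beside 43.1% of all genes, 21% higher and 22.1% lower. GALNT10 stood at 0.03 ± 0.08, with a 95% counting interval of -0.13 to 0.18, and GALNT2 at 0.02 ± 0.02. Under spike-in scaling the ratios of 7 members turned below 0, among them GALNT10 (-0.37), GALNT2 (-0.39), GALNT7 (-0.11) and GALNT4 (-0.16), with GALNT1, GALNT12 and C1GALT1C1. The median was 0.10 beside -0.01 over all genes, and the ratios ran from -0.06 for C1GALT1 to 0.94.

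L5 against NG shares its libraries with the other comparisons, so its values stand beside them and add no separate evidence. GALNT10 was the 1 of 10 members past the size rule, at -1.10 ± 0.07, beside 3.91% of 13465 genes, 2.03% lower and 1.88% higher. It lost the rule with median scaling (-0.99), TPM scaling (-0.96) or a pseudocount of 5 (-0.96). Intervals apart were found for 4 of 10, 3 lower and 1 higher, beside 46.9% of all genes, 30.4% lower and 16.4% higher. These were GALNT2 at -0.45 ± 0.02, C1GALT1C1 at -0.29 ± 0.05 and GALNT3 at 0.33 ± 0.06, besides GALNT10. GALNT6 stood at -0.10 ± 0.07, or at 0.03 with TPM scaling. GALNT1 (-0.10) turned to 0.003 with median and 0.047 with TPM scaling, and C1GALT1 (-0.14) to 0.004 with TPM scaling. GALNT4 (-0.03) turned positive with median, upper quartile or TPM scaling. Spike-in scaling turned GALNT7 (0.08) to -0.74, GALNT12 (0.13) to -0.30 and GALNT3 to -0.50. The median of the 10 was -0.10, the same as over all genes at -0.10.

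**Figure D3:**
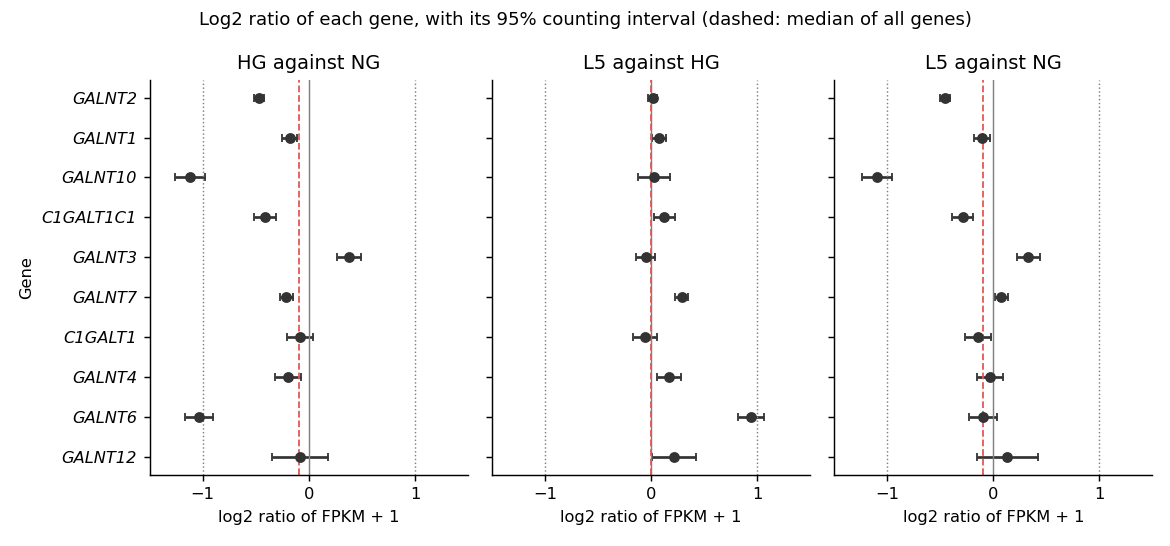
Log2 ratio of FPKM + 1 for each gene in the 3 comparisons, with bars for the 95% counting interval, dotted lines at the size rule of 1 and a dashed line at the median of all genes. GALNT10 lies at -1.12, 0.03 and -1.10, and GALNT6 at -1.04, 0.94 and -0.10.

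The isoform tables list 54 isoforms for the 10 members, of which 19 reached 10% of their gene's summed FPKM in a library, and 4 members had a single isoform at that share. The split among isoforms that share exons is an estimate of the authors' software. GALNT10 had 3 such isoforms. The full-length coding isoform ENST00000297107 was listed at 19.4 FPKM in NG (18.6 to 20.3), 5.90 in HG (5.59 to 6.25) and 9.29 in L5 (8.90 to 9.77). It held 48.9%, 33.4% and 51.6% of the gene, a shift of 15 points or more in HG against either other library. ENST00000377657, of 4840 nt and with its start in the 3′ part of the gene, was listed at 9.28, 4.83 and 3.68 FPKM, and the short ENST00000519571, a transcript without coding sequence, at 8.01, 5.11 and 2.92, with overlapping intervals in NG and HG. All 3 isoforms were highest in NG, and ENST00000297107 was the 1 of the 3 that stood higher in L5 than in HG.

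For GALNT3, the isoform with most FPKM was ENST00000409882, which covers the 3′ part of the gene, at 16.5 FPKM in NG with 21.6 in both HG and L5. Its deposited intervals in HG and L5 (19.2 to 21.2 and 19.2 to 21.3) lay below the listed value. ENST00000412248 was listed at 7.84, 12.0 and 11.7 FPKM. The isoform that spans the whole gene, ENST00000392701, was listed at 3.56 FPKM in NG (3.16 to 3.95), 3.27 in HG (2.96 to 3.58) and 2.80 in L5 (2.51 to 3.10). So the higher GALNT3 level in HG and L5 was listed in the 2 shorter isoforms, and the full-span one was no higher there.

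For C1GALT1, ENST00000223122 held 68.8% in NG, 70.5% in HG and 81.2% in L5, and the retained-intron ENST00000476068 was listed at 2.84, 2.18 and 1.21 FPKM in that order of libraries (intervals 2.31 to 3.37, 1.82 to 2.55 and 0.920 to 1.51). For GALNT12, a 772 nt transcript without coding sequence, ENST00000470473, held 37.0% in NG and 26.4% in L5, from an estimated 15.6 and 19.2 fragments, and was listed at 4.53e-06 FPKM in HG. The coding isoform ENST00000375011 was listed at 0.733, 1.04 and 1.01 FPKM. GALNT6 came almost entirely from ENST00000543196, with 98.3%, 100.0% and 96.3%, so its low value in HG was that of 1 isoform.

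**Figure D4:**
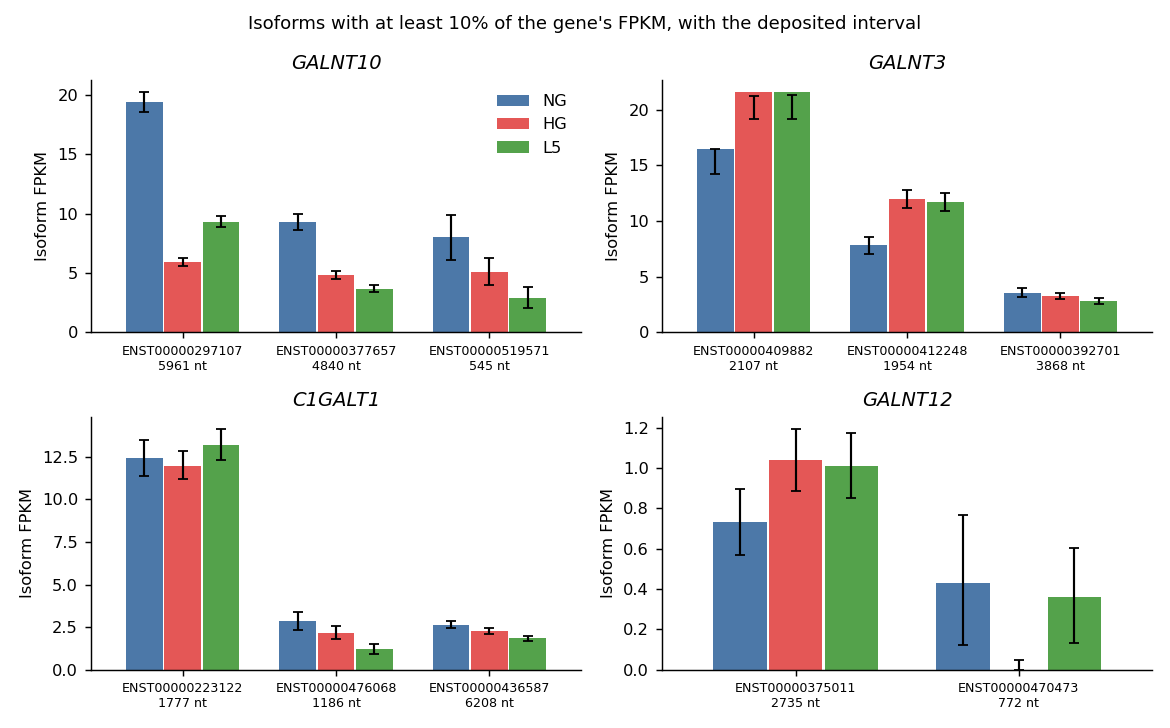
FPKM of the isoforms of GALNT10, GALNT3, C1GALT1 and GALNT12 that held at least 10% of their gene in a library, with bars for NG, HG and L5 and black lines for the deposited interval. ENST00000297107 of GALNT10 is at 19.4, 5.90 and 9.29 FPKM, and ENST00000392701 of GALNT3 at 3.56, 3.27 and 2.80.

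Genes around the members were looked at within 2 Mb on each side. Around GALNT10, 9 genes at 1 FPKM or more had log2 ratios between -0.43 and 0.41 in HG against NG, with a median of 0.00, and 0 of the 9 was as low as GALNT10. Around GALNT6, 50 genes had a median of -0.14, and 2 of them were lower than GALNT6. Around GALNT2, 3 of 31 genes were lower than GALNT2, and around C1GALT1C1 3 of 20 were lower than C1GALT1C1. GALNT3 had 3 measured neighbours, between -0.29 and 0.72.

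For likeness to GALNT10, 8636 other genes at 5 FPKM or more in a library were compared. Genes without an approved-style symbol, and those left out of the background for status or length, were not among them. The 3 compared genes whose log2 levels, centred over the 3 libraries, lay nearest to GALNT10 were LMCD1, MYBL2 and ARHGAP23. Their Euclidean distances were 0.01, 0.03 and 0.07. LMCD1 was listed at 8.29, 3.27 and 3.39 FPKM, MYBL2 at 63.1, 28.5 and 28.1 and ARHGAP23 at 34.6, 16.0 and 16.8. With 3 libraries such likeness describes these profiles only.

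Around the members in the pathway, the other GALNT genes included 1 lower and 0 higher by the size rule of 4 measured in HG against NG, and 1 higher and 0 lower of 5, POC1B-GALNT4 included, in L5 against HG. Over all genes, 4.19% passed the rule in HG against NG and 2.22% in L5 against HG. The related lists are too small for a count of 0 or 1 to be set apart from these shares. GALNT14, linked in cancer to the glycosylation of death receptors, was listed at 8.95 FPKM in NG beside 3.48 in HG and 5.43 in L5 (HG against NG -1.15 ± 0.13). GALNT5 was listed at 3.51, 2.52 and 6.78 FPKM (L5 against HG 1.15 ± 0.05). GALNT11 and GALNT18 had log2 ratios of 0.02 and -0.03 in HG against NG.

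On the list for core extension of O-glycans, 6 genes were measured and 0 passed the size rule in each comparison. GCNT1, which branches core 1 into core 2, was listed at 3.04 FPKM in NG beside 6.88 in HG and 6.07 in L5 (HG against NG 0.96 ± 0.11), and B3GNT6, which makes core 3, at 0 in NG and HG. Of 10 measured genes for sialic acid caps, 1 was higher and 0 lower in HG against NG, beside 1.32% and 2.87% of all genes. That gene was ST6GALNAC2, a sialyltransferase of core 1 and Tn chains, listed at 2.14, 7.55 and 5.86 FPKM (1.45 ± 0.14, and 1.13 ± 0.11 in L5 against NG). ST6GALNAC1, the main maker of sialyl-Tn, was near 1 FPKM throughout, at 0.969, 1.31 and 1.28.

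Genes that supply UDP-GalNAc and UDP-galactose had 0 of 12 past the size rule in HG against NG and 1 of 12, higher, in L5 against HG. The shares of all genes past the rule were 4.19% and 2.22%. The largest ratios were those of GFPT2, an entry enzyme of the hexosamine pathway, at 1.56, 0.299 and 2.27 FPKM (-0.98 ± 0.20 and 1.33 ± 0.17), and of SLC35D1, a nucleotide sugar transporter, at 5.33, 10.4 and 10.4 FPKM (0.85 ± 0.05 in HG against NG). The median of that list in HG against NG was -0.19 beside -0.09 over all genes. Of mucins and other O-glycan carriers, 8 of 18 were measured. All 8 MUC genes on the list were under 1 FPKM in every library, with MUC1 at 0.105, 0.178 and 0.139. Carriers at high levels were CD44 at 160.5, 144 and 189 FPKM, SDC1 at 75.9, 104 and 121, LAMP1 at 97.2, 85.7 and 88.1, and LAMP2 at 95.5, 105.9 and 112.5. PODXL, a sialomucin, was the 1 carrier past the size rule, at 14.3, 1.56 and 5.36 FPKM (-2.58 ± 0.07 in HG against NG and 1.31 ± 0.07 in L5 against HG).

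**Figure D5:**
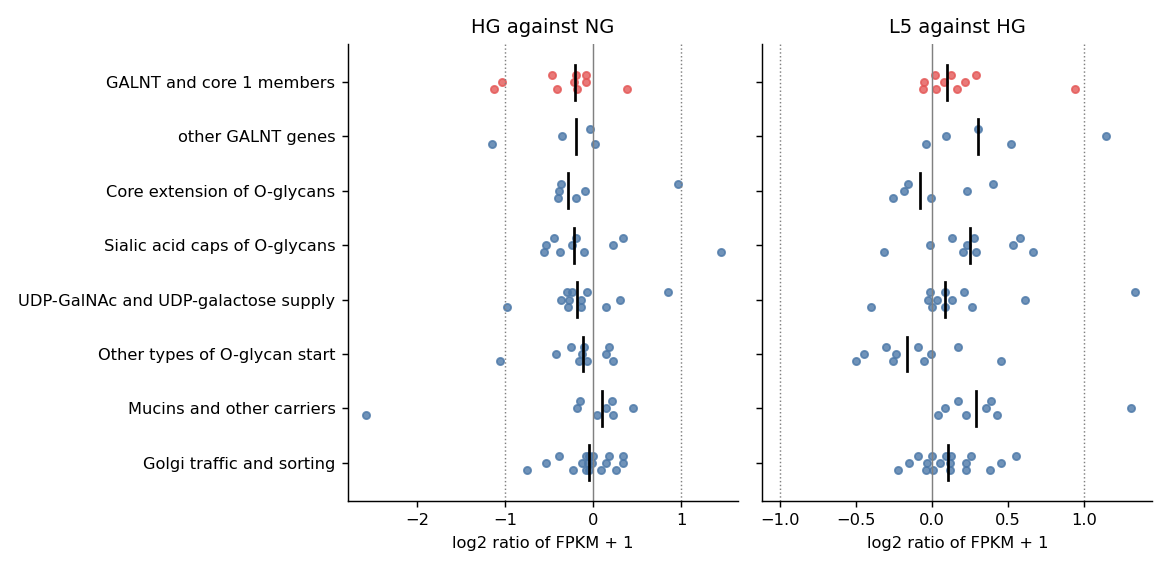
Log2 ratios of FPKM + 1 in HG against NG and L5 against HG for the 10 members (top row, red) and for 7 related gene lists, 1 point per measured gene, with a black tick at each list's median and dotted lines at the size rule of 1. The members' medians are -0.20 and 0.10, and the points beyond the dotted lines in HG against NG include ST6GALNAC2 at 1.45 and PODXL at -2.58.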

How the data were processed

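Poly-A RNA of 1 library each of NG, HG and L5 was sequenced strand-specifically as paired 100-base reads, per the labels' protocols. The authors deposited FPKM per gene and isoform, on GRCh37; the submitters' processing notes name BWA, TopHat and Cufflinks, and versions are not given in the sources used here. Coverage, the mean read depth per transcript, was deposited unscaled, and with 200 bases per fragment it gave the fragment estimates. Rows of 1 gene ID were summed. Features with a status other than OK, longest isoforms under 300 nt and spike-ins were left out of the background, which held genes at 1 FPKM or more in either library. Ratios are log2 of FPKM with a pseudocount of 1. Counting errors were the deposited interval widths relative to their midpoints, applied to the FPKM, and all 30 member intervals held their FPKM.

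No test exists with 1 library per group. All 10 members are named. Related genes with the largest ratios, isoforms past 10% share and 15 points of shift, and nearest profiles were named by rule. Further related genes, such as CD44 and ST6GALNAC1, and further isoforms, such as those of GALNT3 and C1GALT1, were chosen outside these rules. The members and lists were chosen with earlier results of these data known. The ratios and the size rule alone were tried on simulated fragment counts with planted changes. Those counts held counting error and no spread between cultures. Alternatives were pseudocounts, scalings, filters, isoform sums, interval midpoints and symbol sums. Python 3.11.15, pandas 2.3.3, numpy 2.4.6, matplotlib 3.10.9 and Biopython 1.88 were used.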

Additional observations from a re-analysis of the deposited data

How the results depend on the processing

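No paired analysis was possible because each group held 1 library. For HG against NG, where 2 members passed the size rule, 1 did with median scaling or with a filter of 5 FPKM, which leaves out GALNT6, and 0 with a pseudocount of 5. For L5 against HG, with 0 past the rule, 1 passed (GALNT6) with a pseudocount of 0.1, with TPM scaling or with a size rule of 0.5. For L5 against NG, with 1 past the rule, 0 passed with median scaling, TPM scaling or a pseudocount of 5, and 3 with spike-in scaling. The share of all genes past the rule was not counted under these alternative settings. With spike-in scaling the median of all genes for L5 against NG was itself -0.81, so that rise to 3 is no result about the members. By separate intervals in place of size, 8, 3 and 4 members were counted in the 3 comparisons, beside 48.8%, 43.1% and 46.9% of all genes. Spike-in scaling gave member medians of -0.59, -0.31 and -0.84, beside all-gene medians of -0.45, -0.37 and -0.81, and TPM scaling gave 0.036 for L5 against NG, beside 0.041 over all genes. No ratio past the size rule turned its sign under the 9 alternatives run on single members. Across all members and comparisons, the sign turned in 3 of 90 values for HG against NG, 7 of 90 for L5 against HG and 10 of 90 for L5 against NG. GALNT12, with 110 to 216 fragments, has the widest counting errors.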

Other observations

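Enzymes that start other kinds of O-glycan had 1 of 10 measured genes past the size rule in HG against NG and 0 of 10 in L5 against HG. The shares of all genes past the rule were 4.19% and 2.22%. POMT1, a starter of O-mannose glycans, was listed at 6.86 FPKM in NG beside 2.78 in HG and 4.17 in L5 (HG against NG -1.06 ± 0.12). EOGT, which starts extracellular O-GlcNAc, had the largest ratio in L5 against HG, -0.50 ± 0.08, at 8.22, 7.81 and 5.23 FPKM.

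Golgi traffic and sorting genes, which set where GALNT enzymes reside, had 0 of 18 past the size rule in each comparison. Their medians were -0.05 in HG against NG and 0.11 in L5 against HG, beside -0.09 and -0.01 over all genes. The Golgi matrix protein gene GOLGA2 had the largest ratio in both, at 35.7 FPKM in NG beside 20.8 in HG and 30.9 in L5 (-0.75 ± 0.06 and 0.55 ± 0.05). COG4, a subunit of a Golgi tethering complex, was listed at 27.9, 18.9 and 25.0 FPKM (-0.54 ± 0.05 in HG against NG). SRC, a kinase known to move GALNT enzymes out of the Golgi, was listed at 20.9, 23.4 and 32.3 FPKM (0.45 ± 0.05 in L5 against HG), though its deposited intervals in HG and L5 end below the listed values.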
